A study of Homo sapiens with 4 samples.

Results

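The noncoding RNAs examined here are some of those made by RNA polymerase III that carry out general cell functions, together with their genomic copies. They are 7SL, 7SK, the Y and vault RNAs, and the RNA subunits of RNase P (RPPH1) and RNase MRP (RMRP). Members were chosen by a rule on gene names, which uses no measured value but was set with earlier results of these data known, and 155 of 75165 transcripts in the RIP-seq table matched. In RIP-seq, an antibody pulls down a protein and the RNA bound to it is sequenced beside RNA kept from the lysate as input. MDA-MB-231, a triple negative breast cancer cell line, was transduced by lentivirus to overexpress YTHDC1 with a 3x Flag tag and selected with puromycin, and nuclei of UV-crosslinked cells were lysed. The 4 libraries comprise 2 anti-Flag IP libraries and 2 input libraries from such cells, so every library comes from cells that carry the transgene.

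Each transcript has a single level in the table, the authors' mean of normalized counts over all 4 libraries. No value of a single library or of the IP or input alone was used, so every level below pools IP and input, carries no replicate error and supports no test between them. The authors' fold changes and p-values between IP and input were not used. The depth of each library is unknown from this table. The means of all 75165 transcripts summed to 33361205 normalized counts, with a median of 44.2 and a lowest value of 2.72. As a check of the cell line, VIM, an intermediate filament gene of mesenchymal cells, had 80785 summed normalized counts and CD44 had 14306, CDH1, the epithelial cadherin gene, had 10.0, and no row was listed for the hormone receptor genes ESR1 and PGR. YTHDC1 itself, the tagged m6A reader, had 55488. Its overexpression cannot be checked library by library with these values.

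7SL is the RNA scaffold of the signal recognition particle, which brings ribosomes that make secreted and membrane proteins to the endoplasmic reticulum. 7SK holds the elongation kinase P-TEFb in an inactive particle and so limits release of paused RNA polymerase II. RNase P trims the 5′ ends of precursor tRNAs, and RNase MRP takes part in processing of ribosomal RNA. Y RNAs bind the Ro60 and La proteins, and vault RNAs belong to large cytoplasmic particles. Genomes of primates hold many copies of 7SL, 7SK and Y RNAs, most of which are annotated as pseudogenes.

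By family, the 155 members were 124 of 7SL, 29 of 7SK, RMRP and RPPH1. Every member had 1 listed transcript, and all 155 symbols had an entry in RefSeq (GRCh38.p14), which gave the positions and extents below. None of the names of Y or vault RNAs matched a row in the table used here, neither those of the 4 Y RNA and 4 vault RNA genes with a known function nor those of the 75 Y RNA and 2 vault RNA copies in RefSeq. In RefSeq the 4 Y RNA genes extend over 84 to 113 bases and the 4 vault RNA genes over 88 to 108 bases, whereas 154 of the listed members extend over 189 to 385 bases, with a median of 295. The remaining member, RN7SL832P, is annotated as a lncRNA with an extent of 2087 bases. Whether the short Y and vault RNAs were lost in library preparation, mapping or the authors' filter on low reads, or were listed under other names, was not tested.

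Of the 14 genes with a known function that the names could match, 6 were listed, and these 6 were the 6 most abundant members. RN7SL1, a gene for the RNA of the signal recognition particle, had the highest level of all 75165 transcripts, with a mean of 2329020 normalized counts. RN7SL2, the other main 7SL gene, came second in the table with 1512725. RN7SK ranked 4 with 232045 normalized counts, and RPPH1 ranked 8 with 150935. Of the 10 most abundant transcripts, 4 were thus members. RMRP followed at rank 130 with 17269 normalized counts, and RN7SL3 at rank 248 with 11574.

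**Figure D1:**
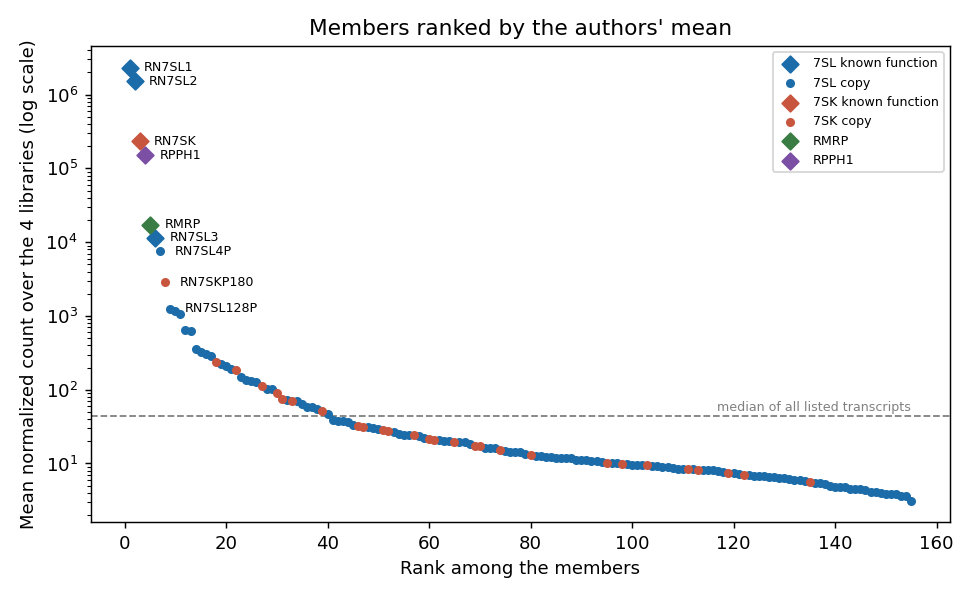
Mean normalized count over the 4 libraries (log scale) of the 155 members, ranked from highest to lowest, with diamonds for genes with a known function and circles for copies. RN7SL1 at 2329020 and RN7SL2 at 1512725 stand far above the copies, of which 34 of 149 lie above the median of all listed transcripts (dashed line, 44.2). Levels were not scaled for transcript length.

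The 155 members held 12.8% of the summed mean normalized counts of the table. RN7SL1 and RN7SL2 together made up 11.5% of that sum, RN7SK 0.696%, RPPH1 0.452%, RMRP 0.0518% and RN7SL3 0.0347%. The 149 copies together made up 0.0616%. Without RN7SL1, the share of the members in the remaining sum was 6.27%. These shares are of normalized counts pooled over IP and input, so they give neither the makeup of the nuclear lysate nor that of the IP.

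The 3 functional 7SL genes each extend over 299 bases of chromosome 14 in RefSeq, and their levels covered a wide range. RN7SL1 (chr14:49586580-49586878) lies within the extent of the ribosomal protein gene RPS29, whose listed transcripts summed to 1497 normalized counts. RN7SL2 (chr14:49862551-49862849) lies within a lncRNA gene that had no listed transcript under its symbol, and RN7SL3 within no other gene. RN7SL1 was 1.54 times as abundant as RN7SL2. RN7SL3 (chr14:49853616-49853914) lies 8.64 kb from RN7SL2 and 267 kb from RN7SL1, and RN7SL2 was 131 times as abundant as RN7SL3. As the extents are equal, these ratios are the same per length. Within the 7SL family, RN7SL1 held 60.2% of the summed level, RN7SL2 39.1% and RN7SL3 0.299%. The 3 genes have closely related sequences, and RSEM divided reads that match several transcripts by a statistical estimate, so how much of each level rests on reads of that gene alone is not known from the table.

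The remaining genes with a known function lie on chromosomes 6, 14 and 9, and none of them lies within the RefSeq extent of another gene. Per 1000 bases of RefSeq extent, RN7SL1 had 7789366 normalized counts, RN7SK (chr6:52995620-52995951) had 698930, RPPH1 (chr14:20343071-20343411) had 442624 and RMRP (chr9:35657750-35658019) had 63960. Per length, the level that RSEM gave to RN7SL1 alone was thus 11.1 times that of RN7SK. RN7SL2, which can share reads with RN7SL1, had 5059282 per 1000 bases. The level of RN7SK was 1.58 times that of RPPH1 per length. Between the RNA subunits of the related enzymes RNase P and RNase MRP, RPPH1 was 6.92 times as abundant per length as RMRP. No replicate spread stands behind these ratios.

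The copies were low by comparison. The 121 listed 7SL copies had a median of 11.9 normalized counts, with quartiles of 6.87 and 33.2. The lowest was RN7SL65P at 3.14, the lowest of all members, and the highest was RN7SL4P at 7530. The 28 listed 7SK copies had a median of 21.3, with quartiles of 10.1 and 56.7, and ran from 5.56 for RN7SKP11 to 2842 for RN7SKP180. Of the 7SL copies, 26 (21.5%) lay above the median of all transcripts, and of the 7SK copies, 8 (28.6%). Levels here were not scaled for transcript length, so this is not a comparison of abundance per length. Among all 149 copies, 5 had at least 1000 normalized counts, 18 had at least 100 but fewer than 1000, 68 had at least 10 but fewer than 100, and 58 had fewer than 10.

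For scale, the 38 other snRNA rows of the table had a median of 281 normalized counts and summed to 0.0502% of the table. The 60 snoRNA rows had a median of 20.5 and summed to 0.132%, and the 10 scaRNA rows had a median of 47.3. Rows of lncRNA genes outside the members numbered 5951 and had a median of 15.9. RN7SK alone, annotated as an snRNA, thus held a larger share of the summed counts than the other 38 snRNA rows together. No test of these differences was run, since each level is a single pooled mean. None of these levels was scaled for transcript length.

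**Figure D2:**
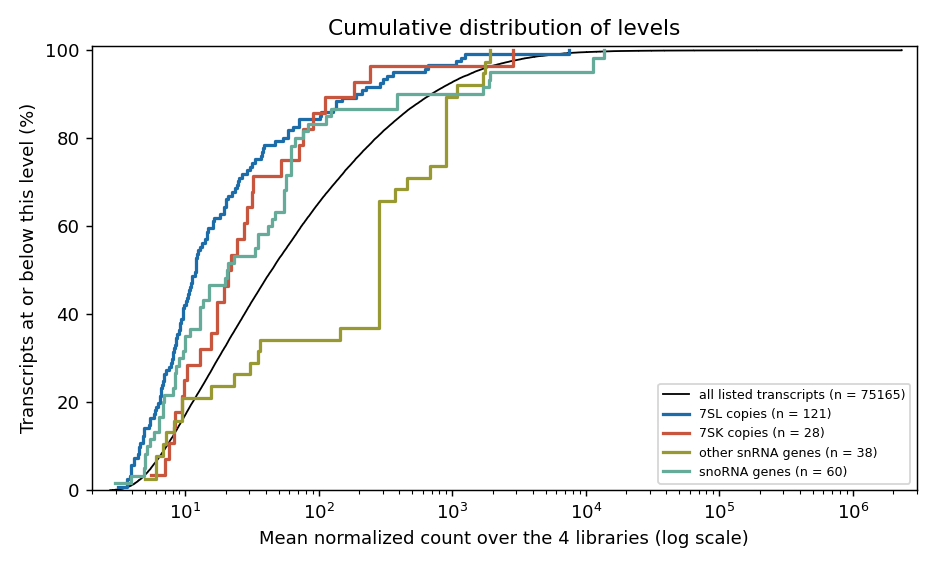
Share of transcripts (%) at or below a given mean normalized count over the 4 libraries (log scale), for the 121 7SL copies, the 28 7SK copies, 38 other snRNA rows, 60 snoRNA rows and all 75165 transcripts. The curves of the copies lie to the left of that of all transcripts over most of the range, with medians of 11.9 and 21.3 against 44.2. Levels were not scaled for transcript length.

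RN7SL4P, the most abundant copy, had 7530 normalized counts and ranked 467 in the table. It lies on chromosome 3 within the extent of ANKRD28, whose listed transcripts summed to 2899. The next 7SL copies were RN7SL128P with 1249 normalized counts, RN7SL151P with 1170, RN7SL752P with 1068 and RN7SL767P with 655. RN7SL128P lies within E2F3, RN7SL752P within PLXND1 and RN7SL767P within SIDT1, whereas RN7SL151P lies within a lncRNA gene. The summed level of the gene around the copy was 2004 normalized counts for E2F3, 4695 for PLXND1 and 17.5 for SIDT1. RN7SL507P, on chromosome 17 and within no other gene, had 624. RN7SL4P was thus well above the other 7SL copies, the next 3 of which lay close together.

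Among the 7SK copies, RN7SKP180 stood apart at 2842 normalized counts, against 240 for RN7SKP9, 184 for RN7SKP255, 112 for RN7SKP227, 90.2 for RN7SKP186 and 75.4 for RN7SKP176. RN7SKP180 has a RefSeq extent of 240 bases within SLC39A11 on chromosome 17, a gene whose listed transcripts summed to 238. RN7SK was 81.7 times as abundant as RN7SKP180, or 59.0 times per length. Of the summed level of the 7SK family, RN7SK held 98.3% and RN7SKP180 1.204%. Whether the reads of a copy come from its own locus or from the functional gene was not tested, as sequences and alignments were not used.

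A pair of 7SL copies was listed at the same level, 5.42 normalized counts, namely RN7SL792P and RN7SL375P. No other members shared a value.

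Most copies known to RefSeq had no row under their symbol in the table. Of 684 7SL copies, 121 (17.7%) were listed, and of 293 7SK copies, 28 (9.56%). A copy enters the table only if enough libraries had enough reads, so the listed copies are those past that filter and not a sample of all copies. Copies were matched by symbol alone. Whether each copy without a row is in the authors' annotation under the same symbol was not checked.

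The positions of the copies were compared next. Of the 337 7SL copies that lie within the extent of a protein-coding gene, 79 (23.4%) were listed. Of the 70 within a lncRNA gene, 10 (14.3%) were listed, and of the 258 within no other gene, 31 (12.0%). Of the 19 within genes of other types only, 1 (5.26%) was listed. Among 7SK copies, the shares were 11.1% of 126 within protein-coding genes, 2.56% of 39 within lncRNA genes and 10.3% of 126 within no other gene. Another 2 7SK copies lie within genes of other types only, and 0 of them were listed. An extent covers introns and exons alike, and the strand of the copy relative to its host gene was not considered.

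**Figure D3:**
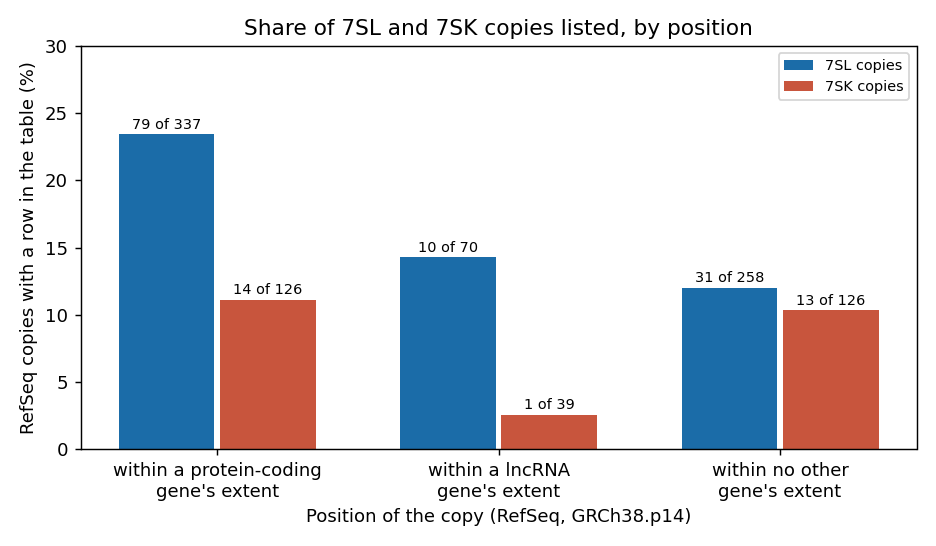
Share (%) of the 7SL and 7SK copies in RefSeq that had a row in the table, by whether the copy lies within the extent of a protein-coding gene, of a lncRNA gene, or of no other gene. The bars start at 0 and carry the counts. Copies within genes of other types only are not shown. For 7SL, 79 of 337 copies within protein-coding genes were listed, against 31 of 258 within no other gene.

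The copies within protein-coding genes were then divided by whether the host gene was itself detected. Where the protein-coding host had listed transcripts under the same symbol, 72 of 271 7SL copies (26.6%) were listed. Where it had none, 7 of 66 (10.6%) were. The corresponding counts for 7SK were 13 of 90 (14.4%) and 1 of 36 (2.78%). The median summed level of the detected hosts was 1403 normalized counts for listed 7SL copies and 664 for copies without a row. For 7SK, these medians were 704 and 312. No test was run on these counts.

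Among listed copies, the level of the copy did not follow that of its host. Over the 72 7SL copies with a detected protein-coding host, Spearman's rho between the levels was -0.0026, with 71 different hosts from 6.65 to 40862 summed normalized counts. RN7SL775P, within MPRIP, the most abundant host, had 8.24 normalized counts. RN7SL398P, within NRP1 at 16958, had 12.8. Over the 13 such 7SK copies rho was -0.10. Both levels come from the same libraries, and the copies had all passed the filter on low reads. In 6 of the 72 pairs the 7SL copy had a higher count than the summed transcripts of its host gene. Examples were RN7SL4P in ANKRD28, RN7SL767P in SIDT1 and RN7SL674P in GREB1, where 358 normalized counts stood against 70.6. The host sums run over transcripts of unequal length, and neither side was scaled for length.

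By position, the levels of the listed copies overlapped widely. The 79 7SL copies within protein-coding genes had a median of 10.9 normalized counts (quartiles 6.80 and 30.3), and the 31 within no other gene had 11.8 (quartiles 6.96 and 22.4). The 10 within lncRNA genes had a median of 34.3 (quartiles 11.8 and 229), with RN7SL151P, RN7SL8P at 326 and RN7SL396P at 288 as the highest. RN7SL736P, within a gene of another type, had 210. The 14 7SK copies within protein-coding genes had a median of 22.5 and the 13 within no other gene one of 19.5. RN7SKP79, within a lncRNA gene, had 21.8.

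Several of the most abundant 7SL copies were short. This was noticed after the levels were seen, and the limit of 250 bases was set then. Only 8 of the 121 listed 7SL copies have a RefSeq extent under 250 bases, and 7 of these 8 had at least 100 normalized counts, against 12 of the 113 longer copies (10.6%). The 8 are RN7SL128P (231 bases), RN7SL151P (213), RN7SL752P (230), RN7SL767P (196), RN7SL674P (200), RN7SL396P (196), RN7SL573P (189) and RN7SL277P (216). Their median was 507 normalized counts, against 11.1 for the longer copies, and RN7SL277P was the low exception at 9.62. Per 1000 bases the medians were 2566 and 36.7. With the limit at 280 bases, the 27 shorter copies had a median of 14.4 and the 94 longer ones 11.2, so the contrast rests on the shortest copies. RN7SL4P, at 272 bases, lies outside the group of 8.

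In RefSeq 37 7SL copies are under 250 bases, of which 8 (21.6%) were listed, and of the 647 longer ones 113 (17.5%) were. Over all 121 listed 7SL copies, Spearman's rho between level and extent was -0.21, over points that come from the same libraries and can share reads. The 7SK copies did not show this contrast at the same limit. The 14 listed 7SK copies under 250 bases had a median of 21.3 normalized counts (quartiles 15.9 and 74.4), and the 14 longer ones had 20.7 (quartiles 9.92 and 31.8). On each side 2 copies had at least 100 normalized counts, RN7SKP180 and RN7SKP255 among the shorter and RN7SKP9 and RN7SKP227 among the longer.

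**Figure D4:**
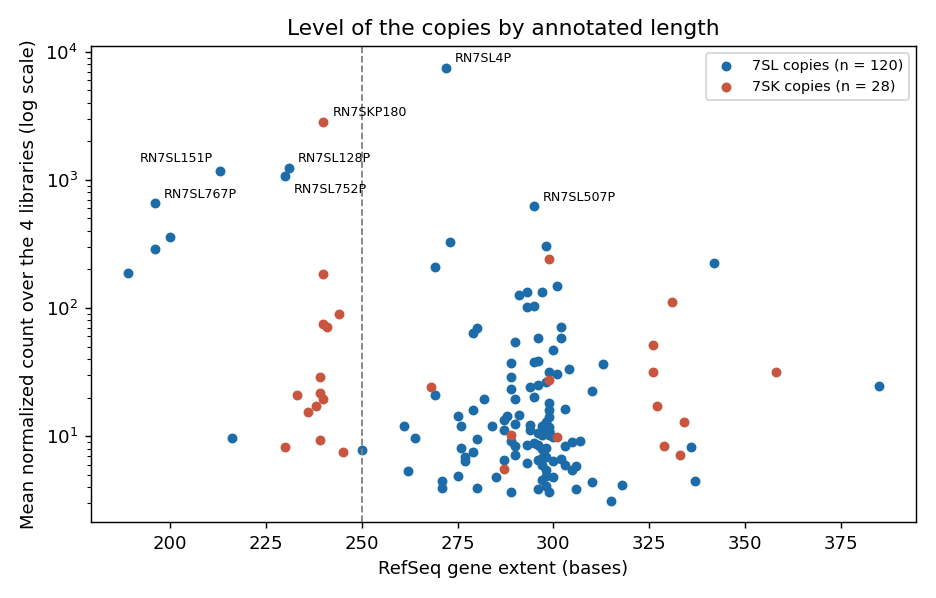
Mean normalized count over the 4 libraries (log scale) against the RefSeq gene extent in bases, for 120 7SL copies (RN7SL832P, with 2087 bases, is left out) and 28 7SK copies. Left of the dashed line at 250 bases, 7 of 8 7SL copies lie above 100, whereas most 7SL copies near 300 bases lie below it.

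The 7SL and 7SK members were found on every chromosome except 21 and Y. Chromosome 1 held most, with 15 listed of 84 in RefSeq (17.9%), followed by chromosome 3 with 13 of 63 (20.6%). The share was lowest on chromosome 15, with 3 of 50 (6.0%), among chromosomes with any listed member. The table also holds 24 rows of the type misc_RNA beside the 151 that are members. They carry clone names, so whether they are further 7SL or 7SK copies, or Y or vault RNAs, cannot be told from the name.

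The genes chosen as protein partners of these RNAs were all listed. All 6 genes for proteins of the signal recognition particle were present, from 172 summed normalized counts for SRP9 to 3472 for SRP68. All 7 genes of the 7SK particle and its kinase were present, from 524 for HEXIM2 to 18977 for HEXIM1, an inhibitor of P-TEFb. MEPCE, the enzyme that caps 7SK, had 4181 and LARP7, which binds the 3′ end of 7SK, had 1448. The 11 genes for RNase P and RNase MRP proteins ran from 115 for RPP40 to 2011 for RPP25. The partners of the Y and vault RNAs were present, although no row matched a name of these RNAs. RO60 had 739, SSB, the gene for La, 755.5 and MVP, the major vault protein gene, 7027. All 28 genes on a chosen list for RNA polymerase III and its factors had rows. Of these, 26 were above the median of 227 over all gene symbols. That median includes lncRNA and other noncoding genes, and the share of protein-coding genes above it was not computed. The sums on this list ranged from 26.8 for POLR3G to 10117.5 for GTF3C1. These sums run over transcripts of unequal length and were not compared with the levels of the RNAs.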

How the data were processed

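RIP-seq libraries came from 4 samples of MDA-MB-231 cells with 3x Flag-YTHDC1, 2 anti-Flag IP and 2 input, grouped by the sample titles. RNA was depleted of rRNA before library construction. The authors mapped reads with STAR (2.7.2b) to a transcriptome with GENCODE annotations on GRCh38, estimated reads of each transcript with RSEM (1.2.31), removed transcripts with few reads, corrected batch effects with RUVSeq and ran DESeq2 (versions of STAR and RSEM from the submitters' processing notes). RSEM divides reads shared by near-identical copies by an estimate.

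The signal value used is the authors' deposited mean of normalized counts over all libraries. Another 4 columns hold the authors' IP against input comparison (log2 fold change, its standard error, p-value and adjusted p-value) and were not used. Since no value is given for a single library, the planned test of IP against input was not run, and the depth is unknown. No interval could be given. The lowest listed mean was 2.72, and the paper's methods required a minimum of reads in only part of the samples.

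Members were found by name, and the members, gene lists and limits were chosen with earlier results of these data known. Named are the genes with a known function, the 5 most abundant other 7SL and 7SK members, the lowest of each family, and listed partner genes. Other names were chosen after their values were seen. The partner and cell line lists give summed levels over listed transcripts. Positions and extents were matched by symbol to RefSeq (GRCh38.p14). A host gene is one whose extent holds the copy whole. If a copy had several, the protein-coding hosts and then the most abundant were taken. RefSeq extents replaced the planned lengths of the same annotation. No sequences were used. Scripts ran on scipy 1.17.1, pandas 2.3.3, matplotlib 3.10.9 and numpy 2.4.6 under python 3.11.15. Position and name matching were tested on simulated data.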

Additional observations from a re-analysis of the deposited data

How the results depend on the processing

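Of the 155 members, 97 had a mean of at least 10 normalized counts and 29 a mean of at least 100. The share of the members in the summed counts, 12.8%, became 6.27% without RN7SL1, 0.0616% for copies alone and 13.4% over transcripts with a mean of at least 100. The median level per 1000 bases, 46.2, became 74.5 with 100 bases taken off each extent (and at least 50 kept) and 46.7 without RN7SL832P, the latter chosen after seeing the data. The ratio of the medians of shorter and longer 7SL copies fell from 45.6 to 1.29 when the limit, also chosen after seeing the data, was moved from 250 to 280 bases. The cause was not tested. Alternatives that need values per library (another count test or normalization, no filter on low counts, leaving out a replicate) were not run. No paired analysis was possible because the table holds 1 mean over all libraries.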
